A study of Mus musculus with 24 samples.

Results

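Cytosolic ribosomal protein genes encode the proteins of the large and small subunits of the ribosome outside mitochondria. They were taken as the protein-coding genes with a symbol of Rpl or Rps and a digit, or Rplp or Rpsa, without the Rps6k kinases and without pseudogene symbols. The rule found 89 of the 21887 protein-coding genes in a RefSeq table for GRCm38.p6 (mm10). Of these, 77 are canonical ribosomal proteins, 46 of the large and 31 of the small subunit, and the other 12 are paralogs, retrotransposed copies and 1 binding partner that the symbol rule also takes.

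Peaks of 2 histone marks were compared in leukaemic erythroid cells (line #763) from bone marrow of the mouse model TgSpi1, in which a transgene overexpresses SPI1, also called PU.1, a transcription factor of the ETS family. All cells grew with erythropoietin (EPO). One condition, Dox_Untreated, received no doxycycline, and the other, Dox_Treated, received doxycycline for 48 h, which switches on a short hairpin RNA against Spi1. Both conditions share the transgene, the cell line and the inducible hairpin, so the results describe 1 line, and no group with doxycycline but without the hairpin is used here. The series asks how SPI1 represses genes in these cells.

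A ribosome is assembled from ribosomal RNA and close to equal amounts of each ribosomal protein, and the genes of these proteins are scattered over the genome and transcribed strongly in growing cells. Many of their messenger RNAs start with a run of C and T, the terminal oligopyrimidine tract, through which growth signals set their translation. Red cell precursors are known to be sensitive to ribosome shortage: loss of 1 copy of several of these genes causes Diamond-Blackfan anaemia, and loss of RPS14 underlies the anaemia of the 5q- syndrome. Acetylation of histone H3 at lysine 27 (H3K27ac) marks active promoters and enhancers, and monomethylation at lysine 4 (H3K4me1) marks enhancers and the flanks of active promoters.

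Each mark had 1 deposited peak list per condition, so every difference stated is a difference between 2 lists, with no replicate error and no test. Replicates 1 and 2 share each H3K27ac list, and replicate 1 alone gave each H3K4me1 list. The untreated and treated lists held 28902 and 23341 peaks for H3K27ac and 119362 and 101388 peaks for H3K4me1. Their covered lengths were 41484406 and 41196223 bp for H3K27ac and 183970636 and 195409264 bp for H3K4me1. The lists carry no read counts, so the depth behind a peak is unknown, and a covered length says how far a peak was called, not how high the signal was. Of 12 erythroid marker genes, 8 had H3K27ac within 1 kb of an annotated end in the untreated list and all 12 in the treated list. The 4 without it in the untreated list were Hba-a1, Hbb-bs, Slc4a1 and Alas2. None of 8 myeloid and 5 stromal or endothelial markers had it in either list, while 1 of 6 T cell markers (Cd3d) and 1 of 5 B cell markers (Cd79a) had it in both.

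H3K27ac covered less of the ribosomal protein genes in the treated list. Within 5 kb of either annotated end, 84 of the 89 members had H3K27ac. The covered length was shorter in the treated list at 69 of these 84 and longer at 14, against 48.8% shorter and 47.7% longer among the 11693 genes with H3K27ac. Its median over the members was 4407.5 bp untreated and 3854.5 bp treated, and the median difference was -550 bp, against 0 bp over all genes. A difference of at least 1000 bp was found at 19 members, all of them shorter, while 9.07% of all genes were shorter and 8.21% longer by that much. The members' H3K27ac was longer than the median of all covered genes, 2306 bp untreated and 2303 bp treated, so they were also set beside genes of like length. Among the 2566 genes with a mean covered length between the members' quartiles, 3217.75 and 5588 bp, 52.5% were shorter and the median difference was -53 bp. The 42 members in that range had 32 shorter, 10 longer and a median difference of -450 bp. With lengths scaled to equal list totals, 69 members were shorter and 15 longer, against 48.2% and 51.8% of all genes. H3K27ac within 1 kb of the ends of the 12 erythroid markers differed the other way, with a summed length of 12905 bp untreated and 21724 bp treated. That window is narrower than the 5 kb used for the members. The sums cover 8 marked genes untreated and 12 treated. The part of this difference in the result at the ribosomal protein genes was not tested.

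**Figure D1:**
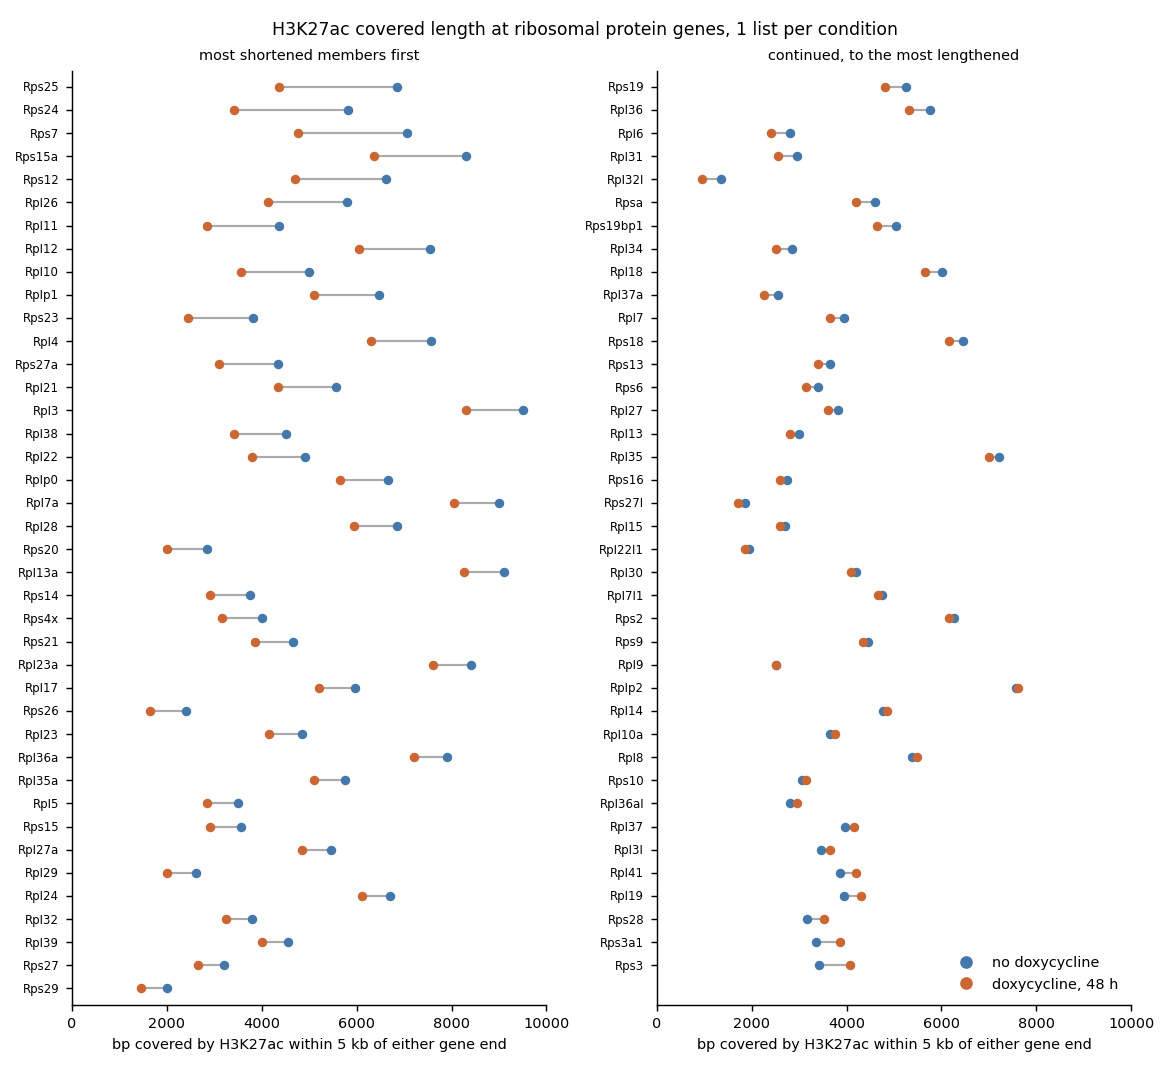
H3K27ac covered length in bp (x axis) at 79 members with H3K27ac, 1 line per gene, sorted by difference. Blue points are the list without doxycycline and orange points the list with 48 h of doxycycline. The treated point lies to the left at 65 of the drawn members and to the right at 13, and the gap ranges from -2497 bp at Rps25 to 653 bp at Rps3.

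The 5 members with the largest shortening all encode small subunit proteins. Rps25, whose protein helps some viral and cellular RNAs recruit ribosomes, had 6853 bp untreated and 4356 bp treated. Rps24, a Diamond-Blackfan anaemia gene, had 5809 bp and 3406 bp. Rps7, also mutated in that anaemia, had 7065 bp and 4756 bp. In the treated list these genes kept H3K27ac around the start site and had less of it farther downstream. At Rps25 a single untreated peak of 6853 bp stood where the treated list had peaks of 3453 and 903 bp. At Rps24 the peak at the start site was 3753 bp untreated and 2103 bp treated, and a peak of 553 bp beyond the gene was in the untreated list alone. Rps15a, a component of the small subunit body, had 8315 bp and 6367 bp, and Rps12, a protein of the small subunit head, had 6612 bp and 4706 bp.

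Members in which H3K27ac was longer in the treated list differed less. Rps3, which lines the channel where messenger RNA enters the small subunit, had 3409 bp untreated and 4062 bp treated. Its start-site peak was nearly equal, at 2703 and 2603 bp, and the added length lay beyond the gene's 3′ end. Rps3a1 had 3359 bp and 3853 bp. Rpl19, a large subunit protein that takes part in a bridge between the subunits, had 3956 bp and 4306 bp. Rps28 had 3169 bp and 3519 bp. Rpl41, the smallest ribosomal protein, had 3856 bp and 4203 bp. Rpl9 was equal in both lists, at 2503 bp.

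The largest summed H3K27ac lengths in the untreated list were at Rpl3, Rpl13a and Rpl7a, all of which host small nucleolar RNA genes in their introns. Rpl3, whose protein reaches toward the peptidyl transferase centre, had 9517 bp untreated and 8314 bp treated, each summed over separate peaks. Rpl13a had 9103 bp and 8253 bp, in windows that also hold other genes. Rpl7a had 9003 bp and 8059 bp. The untreated list held Rpl7a under 1 peak, which the treated list gave as 3 peaks of 4403, 1403 and 2253 bp. Rpl12 showed the same division, with 1 peak of 7553 bp untreated and 3 peaks of 2903, 853 and 2303 bp treated.

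Both subunits took part. Large subunit genes had 38 of 46 shorter and 7 longer, with medians of 4879.5 and 4179.5 bp and a median difference of -604.5 bp. Small subunit genes had 26 of 31 shorter and 5 longer, with medians of 3806 and 3406 bp and a median difference of -550 bp. The P stalk, the flexible arm of the large subunit that recruits translation factors, was split. Its base protein gene Rplp0 had 6659 bp and 5656 bp and Rplp1 had 6465 bp and 5103 bp, while Rplp2 had 7563 bp and 7607 bp. Among 27 members listed as hosts of small nucleolar RNAs, 24 were shorter and 3 longer, with a median difference of -700 bp.

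Of 21 genes linked to Diamond-Blackfan anaemia or the 5q- syndrome, 18 were shorter and 3 longer, with medians of 3753 and 3156 bp. Rps19, the most often mutated of them, had 5253 bp untreated and 4803 bp treated. Rps14 had 3753 bp and 2903 bp. Rpl5 and Rpl11, which as part of the 5S ribonucleoprotein can bind the p53 inhibitor MDM2, had 3503 and 2853 bp, and 4359 and 2853 bp. Rpl23, another MDM2 binding protein, had 4856 bp and 4156 bp. Rps28 was among the longer genes of the list, as was Rps10, with 3053 and 3153 bp. The median share of the gene body under H3K27ac at the 21 genes was 75.9% and 56.9%. Over the 84 members with H3K27ac it was 76.2% and 67.9%, and over all covered genes 6.90% and 6.75%.

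Other genes lie close to many members, and their peaks fall in the same windows. For 66 members another protein-coding gene lay within 5 kb, and for 23 none did. Of the 21 covered members without such a neighbour, 19 were shorter and 2 longer, with a median difference of -550 bp. The covered members with a neighbour had 50 of 63 shorter and 12 longer. Ribosomal protein genes also have many processed copies elsewhere in the genome. The placement of reads that match several copies was not given in the sources used here, so exon signal may be split between a gene and its copies.

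The symbol rule's 12 other genes differed in presence. Rpl10l, Rpl37rt, Rpl39l, Rps23rg1 and Rps27rt had no H3K27ac in either list. Rpl10l, which replaces Rpl10 in the male germ line, Rpl39l and Rps27rt had no H3K4me1 either. Rpl32l had H3K27ac only farther than 1 kb from its ends, with 1353 and 953 bp. Among the 7 covered genes, Rps19bp1, which encodes a binding partner of RPS19 and not a ribosomal protein, had 5041 bp and 4644 bp, Rpl7l1 4756 and 4656 bp, Rpl22l1 1953 and 1853 bp, and Rps27l 1853 and 1703 bp. Rpl3l, the muscle paralog of Rpl3, had 3456 and 3656 bp, of which little lay on the gene: H3K27ac covered 5.35% and 8.96% of its body. Rpl36al had 2803 and 2953 bp.

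All 77 canonical genes had H3K27ac within 1 kb of an annotated end in both lists. Among all 89 members, 83 did in each list, against 46.5% of all genes untreated and 45.8% treated. No member had it there in 1 list alone. The difference between the conditions was therefore in extent and not in presence at gene ends. The untreated list had 165 H3K27ac peaks in the members' windows, of which 131 shared 1 bp or more with a treated peak (79.4%, exact Clopper-Pearson 95% interval 72.4 to 85.3%, counting error over peaks only). The treated list had 135, of which 131 overlapped an untreated peak (97.0%, interval 92.6 to 99.2%). Over the whole lists the shares were 72.6% and 82.9%. The 34 peaks found in the untreated list alone had a median width of 353 bp, and the 131 shared ones 2803 bp. Peaks were fewer in the treated list at 27 of the 84 covered members (32.1%) and more at 9 (10.7%), close to the 29.7% and 11.4% of all covered genes. For H3K4me1 they were fewer at 33 of 86 (38.4%) and more at 11 (12.8%), against 43.8% and 20.5%.

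The promoters of 6 members are printed so that the sequence under the peaks can be seen: the 4 genes with the largest shortening of H3K27ac, Rps3 as the gene with the largest lengthening, and Rps19 by its role in anaemia. Each sequence runs from 200 bases before the start site to 20 bases from it, 5′ to 3′ on the gene's strand, from RefSeq on GRCm38.p6. Capitals mark the ETS core motifs GGAAGT and CCGGAA and their complements ACTTCC and TTCCGG, which overlap where CCGGAAGT stands. Rps25 lies at chr9:44407514-44407733 (plus strand), Rps24 at chr14:24490478-24490697 (plus), Rps7 at chr12:28635934-28636153 (minus), Rps15a at chr7:118116128-118116347 (minus), Rps3 at chr7:99483690-99483909 (minus) and Rps19 at chr7:24884392-24884611 (plus).
Rps25: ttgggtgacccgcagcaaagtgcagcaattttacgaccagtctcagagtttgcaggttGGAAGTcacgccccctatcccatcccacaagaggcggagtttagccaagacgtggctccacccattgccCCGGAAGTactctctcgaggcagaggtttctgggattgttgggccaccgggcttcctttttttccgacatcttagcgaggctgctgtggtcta
Rps24: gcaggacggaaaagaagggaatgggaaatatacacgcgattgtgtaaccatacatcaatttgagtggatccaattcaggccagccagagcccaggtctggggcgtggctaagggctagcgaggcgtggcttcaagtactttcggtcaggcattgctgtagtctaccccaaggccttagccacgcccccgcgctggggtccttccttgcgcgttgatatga
Rps7: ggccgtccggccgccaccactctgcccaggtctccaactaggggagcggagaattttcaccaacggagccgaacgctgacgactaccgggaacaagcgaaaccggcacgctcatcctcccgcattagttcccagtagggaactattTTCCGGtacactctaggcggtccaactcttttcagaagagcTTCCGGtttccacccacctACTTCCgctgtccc
Rps15a: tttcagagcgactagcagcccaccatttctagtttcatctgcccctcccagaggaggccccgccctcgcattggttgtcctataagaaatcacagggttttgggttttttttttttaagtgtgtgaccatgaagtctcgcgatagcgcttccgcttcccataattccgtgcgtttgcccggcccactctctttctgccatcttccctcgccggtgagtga
Rps3: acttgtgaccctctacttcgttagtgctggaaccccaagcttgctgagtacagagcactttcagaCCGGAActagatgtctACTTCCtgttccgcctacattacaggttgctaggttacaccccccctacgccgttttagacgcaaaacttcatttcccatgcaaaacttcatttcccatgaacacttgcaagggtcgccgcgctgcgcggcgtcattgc
Rps19: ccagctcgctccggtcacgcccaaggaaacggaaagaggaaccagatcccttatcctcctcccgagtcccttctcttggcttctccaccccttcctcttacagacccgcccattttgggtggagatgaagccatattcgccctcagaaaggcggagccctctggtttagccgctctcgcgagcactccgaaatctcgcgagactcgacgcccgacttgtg

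Rps25, Rps7 and Rps3 hold capitals in this window, and Rps24, Rps15a and Rps19 hold none. The promoter table had an entry for 69 of the 89 members, and its 300 bases, 250 before to 50 from the start, were searched on both strands. GGAAGT was present at 31 of the 69 (44.9%), against 25.1% of 17492 promoters of protein-coding genes. CCGGAA was present at 33 (47.8%), against 19.1%. The members' promoters held a median of 21 CG pairs, against 13 over all promoters, and CCGGAA itself contains CG. The 17492 promoters also include many without H3K27ac over the start. The part of CG content and of activity in these shares was not tested. GAGGAA, a core that SPI1 is known to bind, was present at 18 (26.1%), against 27.5%. AAGATGG, the core of the YY1 motif, was present at 10 (14.5%), against 6.35%, and TATAAA at 8 (11.6%), against 13.3%. A run of at least 6 C or T beginning within 5 bases of the start was found at 28 members (40.6%), against 12.9%, which is the start of an oligopyrimidine tract. These matches describe letters only. H3K27ac was shorter at 35 and longer at 10 of the 45 covered members with either ETS core, with a median difference of -350 bp. It was shorter at 16 and longer at 2 of the 19 without one, with a median difference of -650 bp.

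The start site and strand of these 69 members allowed the peak edges to be placed along the gene. H3K27ac lay over the start base of 57 members untreated and 60 treated (82.6% and 87.0%), against 40.5% and 42.7% of all genes. H3K4me1 lay over it at 4 members in each list (5.80%), against 18.3% and 21.4%. Thus H3K27ac sat on the start and H3K4me1 on both sides of it. This arrangement was not particular to the members. Untreated H3K27ac lay over the start of 89.9% of mitochondrial ribosomal protein, 88.6% of translation factor and 85.9% of ribosome biogenesis genes. Untreated H3K4me1 lay there at 8.70%, 2.27% and 6.25% of them. Rpl41, Rps24 and Rps3a1 had H3K27ac over the start base in the treated list alone. At Rps24 the untreated peak began 50 bp downstream of the treated one, which is 1 step of the grid on which peak starts lie.

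The H3K27ac peak over the start reached less far downstream in the treated list, and the difference upstream was smaller. At the 57 members with a peak over the start in both lists, the downstream edge was nearer the start in the treated list at 44 and farther at 11, against 43.6% nearer and 46.4% farther among 6855 genes. Its median distance was 2482 bp untreated and 2150 bp treated, with a median difference of -250 bp, while all genes had 1157 and 1160 bp and a median difference of 0 bp. The edge was nearer by at least 500 bp at 21 members and farther by that much at 3, against 8.07% and 8.52% of all genes. Among the 673 genes whose peaks reached equally far, between 1976 and 2873 bp, 49.9% were nearer, and the members in that range had 23 of 29 nearer. On the upstream side the edge was nearer at 30 members and farther at 22, with medians of 870 and 940 bp and a median difference of -50 bp, against 37.4% and 50.1% of all genes and a median difference of 50 bp. With peaks within 1 kb of each other merged, 59 members had a peak over the start in both lists. The downstream edge was then nearer at 50 and farther at 8, against 46.3% and 44.1% of 7276 genes, with a median difference of -250 bp. The upstream edge was nearer at 37 and farther at 16, against 41.3% and 46.6%, with a median difference of -50 bp.

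Edges of single genes ranged from large steps to none. At Rps25 the downstream edge was 5237 bp from the start untreated and 2037 bp treated. At Rpl7a it was 6844 and 2344 bp, and at Rpl12 6439 and 2239 bp, and the long untreated peaks of these 3 genes were divided in the treated list. The genes are 2693, 2628 and 2334 bp long, so the untreated edges lay beyond them, where other genes lie within 5 kb. The treated list held further H3K27ac peaks within the span of each untreated peak, so these steps include gaps between treated peaks. Among the anaemia genes, Rps19 had 3959 and 3459 bp, Rpl11 2744 and 2244 bp, and Rpl5 2623 and 2023 bp. In each of these anaemia genes the treated edge was the nearer one. Rps7 went the other way, with 2304 and 2904 bp, but had a further peak of 1853 bp just downstream of its start-site peak in the untreated list. Rplp0 had 2884 and 3434 bp, and Rps2, which lies at the messenger RNA entry of the small subunit, had 2588 bp in both lists. The edge was nearer at 17 of 21 small subunit genes, with a median difference of -450 bp, at 24 of 31 large subunit genes, with -250 bp, and at 13 of 15 anaemia genes, with -500 bp.

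**Figure D2:**
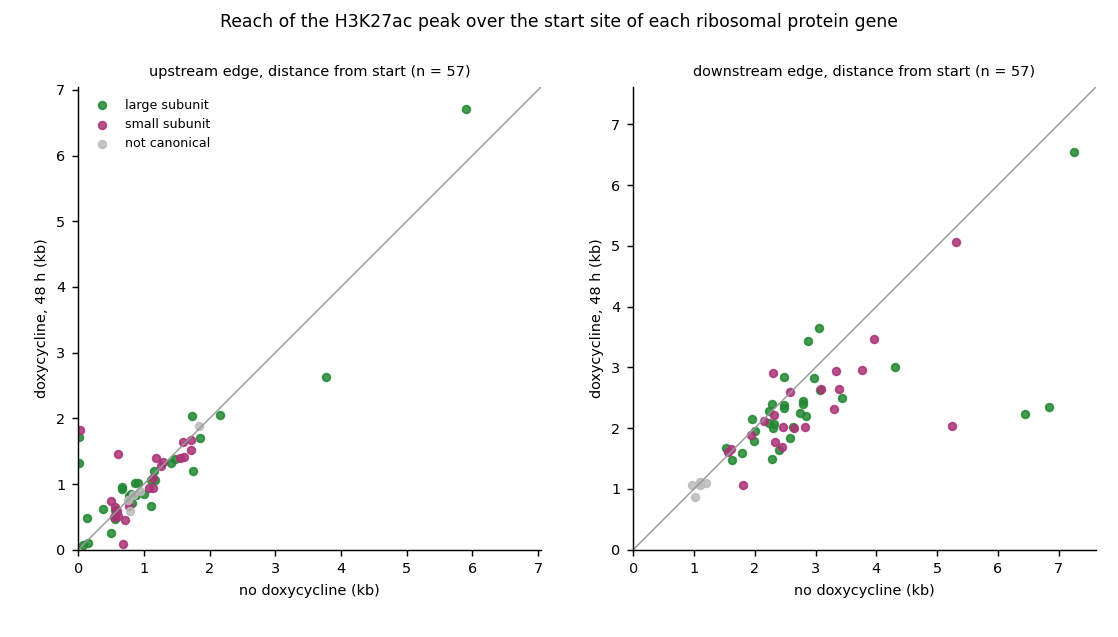
Distance in kb from the start site to the upstream (left) and downstream (right) edge of the H3K27ac peak over the start, without doxycycline (x axis) and with it (y axis), for 57 members coloured by subunit. The grey line marks equal distances. On the right, 44 points lie below the line and 11 above it, and on the left 30 lie below and 22 above.

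**Figure D3:**
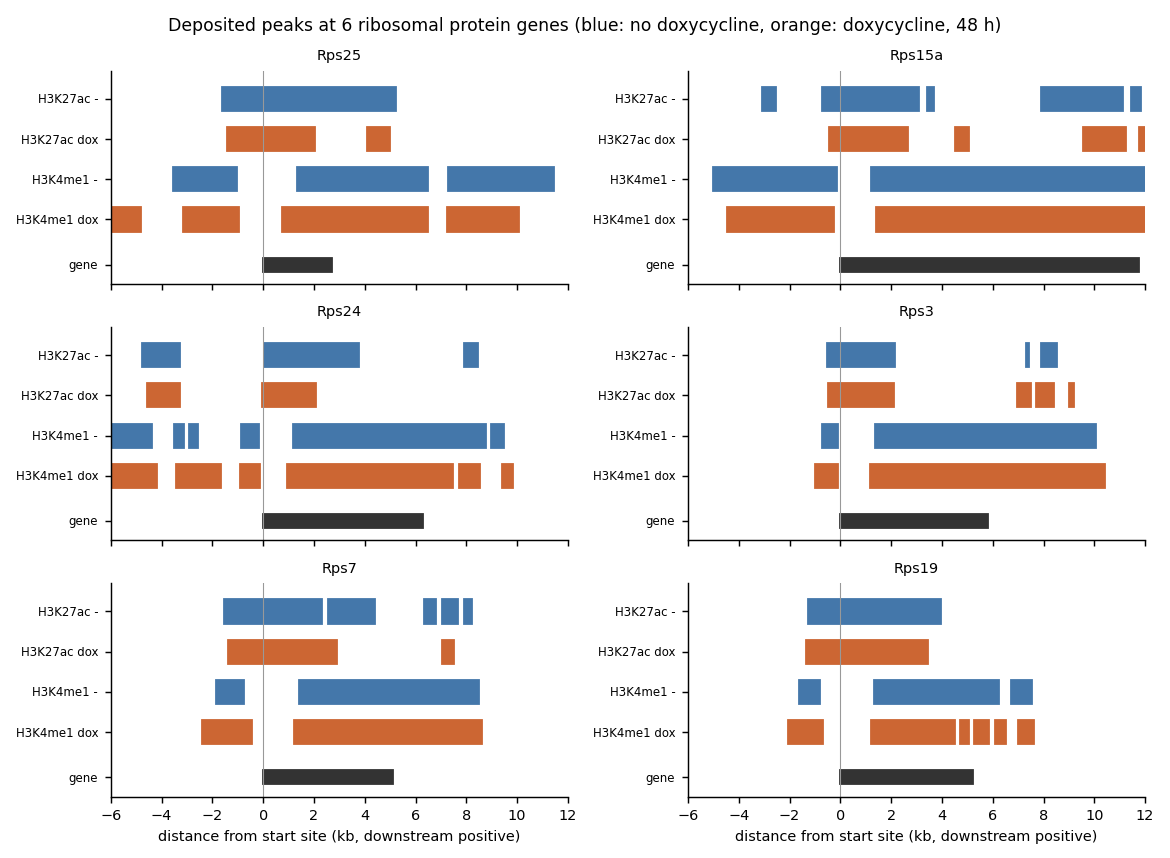
Peaks of the 4 lists at 6 members by distance from the start site in kb, with the gene in black, H3K27ac in the upper and H3K4me1 in the lower tracks, blue without doxycycline (-) and orange with it (dox). The treated H3K27ac peak over the start of Rps25 ends 2037 bp downstream of the start and the untreated one at 5237 bp. A further treated peak of 903 bp lies within the span of that untreated peak. H3K4me1 is absent over the start of all 6 genes.

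H3K27ac peaks over the start sites of ribosomal protein genes are wide beside all peaks of their lists. Their median width was 3253 bp untreated and 3153 bp treated, which is the median percentile 91.9 and 87.4 of all peak widths in the same list. Every start-site peak was wider than the median of its list, at 57 of 57 members untreated and 60 of 60 treated. The list medians, 1003 and 1353 bp, cover peaks of all kinds, and start-site peaks of other genes were not ranked. Over the 6855 genes with a start-site peak in both lists, untreated edges had medians of 802 bp upstream and 1157 bp downstream. The members had 870 and 2482 bp. The widest was at Rpl13a in the untreated list, with 9103 bp, and at Rpl36a in the treated list, with 8353 bp.

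H3K4me1 covered more of the same genes in the treated list. Of the 86 members with H3K4me1, 69 were longer and 16 shorter, against 62.9% longer and 36.2% shorter among 15489 genes. Medians were 6557.5 bp untreated and 7427.5 bp treated, and the median difference was 722 bp, against 347 bp over all genes. A gain of at least 1000 bp was found at 33 members and a loss of that size at 1, Rps20, against 26.1% and 10.6% of all genes. The treated H3K4me1 list covers more of the genome. With lengths scaled to equal totals, 53 members were longer and 33 shorter with a median difference of 221 bp, against 51.4% longer and 48.6% shorter among all genes. The 21 covered members without a neighbouring gene within 5 kb had 14 longer and 7 shorter (66.7% and 33.3%). Their median difference was 350 bp, so they lay near all genes. The 65 with a neighbour had 55 longer and 9 shorter, with a median difference of 800 bp. H3K4me1 lay within 1 kb of an end at 86 members in each list, against 60.5% and 60.0% of all genes.

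Rps4x, the X-linked copy of a small subunit protein, had the largest gain, with 4812 bp of H3K4me1 untreated and 8876 bp treated. There the treated list had H3K4me1 over the start base and a peak of 703 bp in the gene body that was in that list alone. Rpl3 had 9417 and 12161 bp, Rps10 had 6549 and 9099 bp, Rpl13a had 6498 and 8942 bp, and Rpl28 had 5396 and 7746 bp. At Rpl3, Rpl13a and Rpl28 H3K27ac was shorter in the treated list, and at Rps10 it was 100 bp longer. Rps20 had 9462 and 8162 bp, Rpl37 had 7951 and 7451 bp, Rps15a had 15480 and 14984 bp, Rpl29 had 6279 and 5832 bp, and Rpl38, whose loss in mice alters the translation of Hox messenger RNAs, had 8306 and 7909 bp. Rpl10 was equal, with 5043 bp in both lists. In all, 55 members had shorter H3K27ac together with longer H3K4me1, and 13 had both shorter. Both were longer at 11, and 3 had longer H3K27ac with shorter H3K4me1. These joint counts were not computed over all genes, so they have no background. H3K27ac was shorter at 69 of 84 covered members and H3K4me1 longer at 69 of 86, so many members would have both without any link. A link between the marks gene by gene was not tested.

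H3K4me1 began closer to the start site in the treated list. Over the 61 members with a free stretch on the downstream side in both lists, its median length was 1289 bp untreated and 1036 bp treated. H3K4me1 was nearer at 55 and farther at 3, against 66.5% nearer among all genes, which had medians of 686 and 574 bp. Among genes with H3K27ac over the start it was nearer at 68.9%. Upstream the free stretch was 401 and 293 bp, and H3K4me1 was nearer at 53 and farther at 4 members, against 63.1% nearer among all genes and 64.1% among those with H3K27ac over the start. At Rps25 the downstream stretch was 1335 and 735 bp, at Rps12 1808 and 1058 bp, and at Rps24 1171 and 921 bp. At Rps19 it was 1307 and 1207 bp, and at Rps15a it was longer in the treated list, with 1196 and 1396 bp.

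Both marks were also compared at fixed distances from the start. At 1000 bp downstream, H3K4me1 covered 12 of the 69 members untreated and 31 treated (17.4% and 44.9%), and at 1500 bp 45 and 60 (65.2% and 87.0%). Among the 6855 genes with H3K27ac over the start the shares were 80.0% and 87.0% at 1000 bp, and 85.9% and 90.2% at 1500 bp. The members' H3K4me1 shares were thus lower than those of these genes at both distances. H3K27ac covered 61 members in each list at 1000 bp (88.4%), 31 and 20 at 2500 bp (44.9% and 29.0%), and 22 and 14 at 3000 bp (31.9% and 20.3%). Among the 6855 genes it covered 62.3% and 62.1% at 1000 bp, 14.1% and 12.8% at 2500 bp, and 11.1% and 9.91% at 3000 bp. In the first 3 kb of the 69 members, H3K27ac without H3K4me1 took 40.4% of bases untreated and 29.8% treated. Both marks together took 32.7% and 36.4%, H3K4me1 alone 17.6% and 24.8%, and neither mark 9.31% and 8.92%. Among the 6855 genes H3K27ac alone took 20.0% and 16.2%, and H3K4me1 alone 39.1% and 41.4%.

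**Figure D4:**
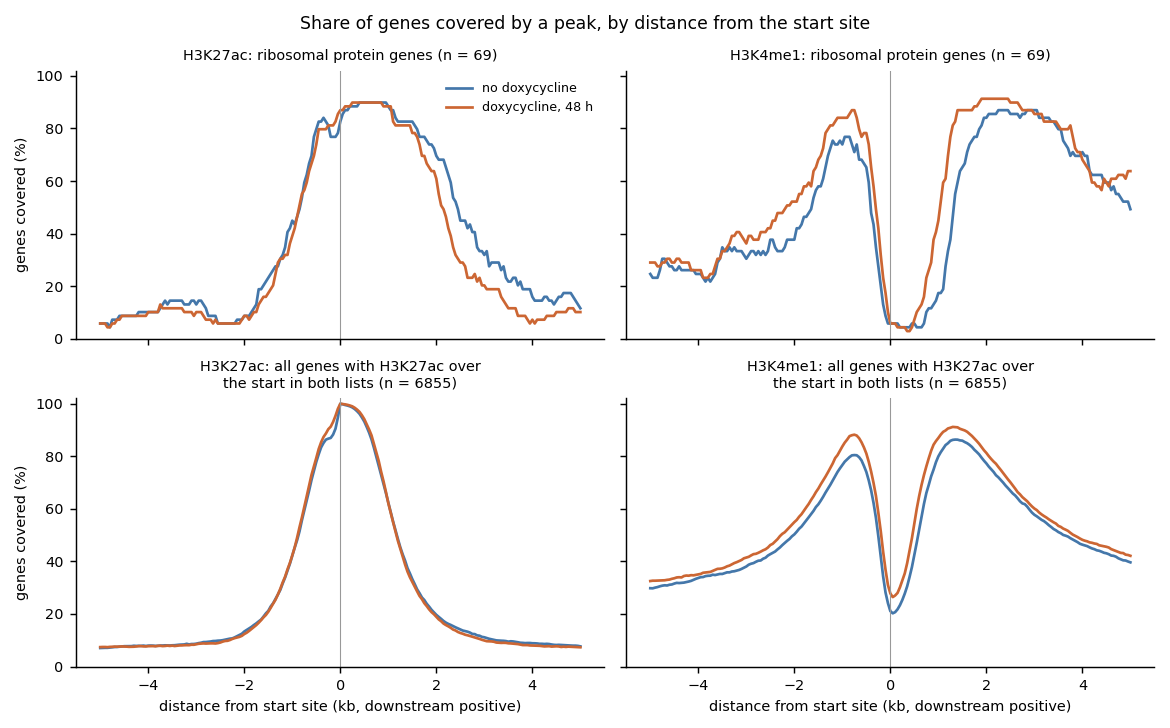
Share of genes in percent (y axis) with a peak at each distance in kb from the start site (x axis, downstream positive) for 69 members (top) and the 6855 genes with H3K27ac over the start in both lists (bottom), H3K27ac left and H3K4me1 right, blue without doxycycline and orange with it. At 2500 bp downstream the members' H3K27ac is at 44.9% and 29.0%, and at 1000 bp their H3K4me1 is at 17.4% and 44.9%.

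Other gene groups of protein synthesis had covered lengths nearer to the background, while their downstream H3K27ac edges were nearer the start more often than over all genes. Mitochondrial ribosomal protein genes, which build the ribosome that translates mitochondrial messenger RNAs, had 43 of 77 shorter and 31 longer H3K27ac, with medians of 2203 and 2253 bp and a median difference of -100 bp. Their H3K4me1 was longer at 53 of 78 and shorter at 23. Their downstream H3K27ac edge was nearer at 38 of 62 (61.3%) and farther at 18, with medians of 935.5 and 932 bp, against 43.6% nearer among all genes and 77.2% among the cytosolic ribosomal protein genes. Translation factors, which start, extend and end protein chains, had 27 of 54 shorter and 25 longer H3K27ac with a median difference of -1.5 bp. Ribosome biogenesis genes, which process ribosomal RNA and assemble the subunits, had 39 of 72 shorter and 30 longer, with a median difference of -50 bp. The downstream edge was nearer at 23 of 39 translation factor genes (59.0%) and farther at 14, with medians of 1570 and 1646 bp. It was nearer at 33 of 55 ribosome biogenesis genes (60.0%) and farther at 20, with medians of 1391 and 1326 bp. A step of at least 500 bp toward the start was found at 12 of these 55 (21.8%) and away from it at 2 (3.64%), against 8.07% and 8.52% of all genes. Translation factor genes had 6 such steps toward the start and 5 away (15.4% and 12.8%). Mitochondrial ribosomal protein genes had 3 toward and 4 away (4.84% and 6.45%). None of these differences between groups was tested.

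**Figure D5:**
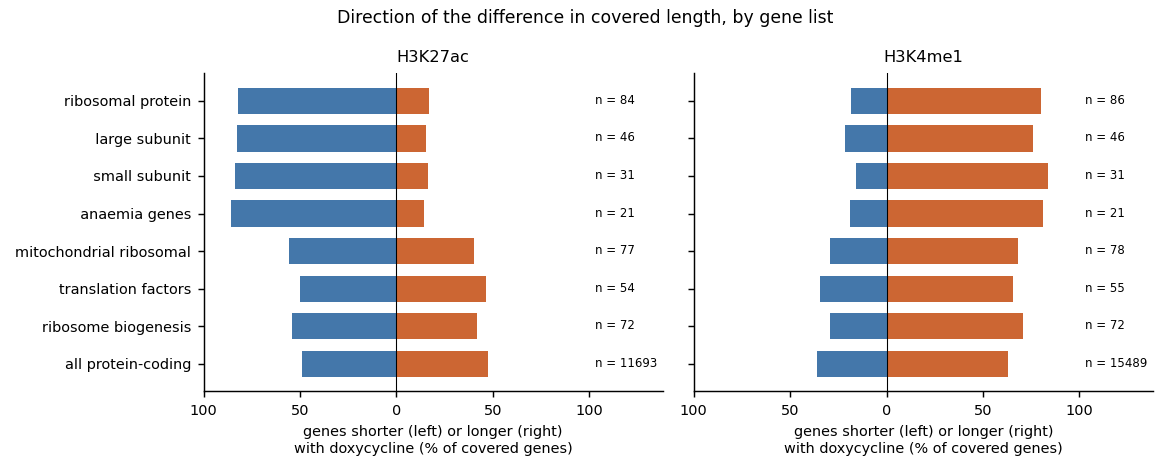
Share of covered genes in percent whose H3K27ac (left) or H3K4me1 (right) covered length was shorter (blue, to the left) or longer (orange, to the right) with doxycycline, by gene list, with the number of covered genes. H3K27ac was shorter at 82.1% of the ribosomal protein genes and 48.8% of all genes, and H3K4me1 longer at 80.2% and 62.9%.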

How the data were processed

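ChIP-seq peak lists of H3K27ac and H3K4me1 without and with doxycycline were used, 4 lists of a series of 24 samples, and the other marks and treatments were not analysed here. The tools bcl2fastq 2.17.1.14 and BWA, and mm10 as the build, are named per the submitters' processing notes. Peak calling, its thresholds and the joining of the H3K27ac replicates are steps not given in the sources used here. Deposited files give positions and, for H3K4me1, a score by the authors on an unstated scale, which served here for ranking alone. H3K27ac peaks were ranked by width. Groups came from the sample titles.

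For each gene, the length under peaks was summed per list over windows of 5 kb around its annotated ends, and peaks within 1 kb were recorded. Positions came from a RefSeq table on GRCm38.p6 without strand. Strand and start sites came from the RefSeq promoter table, which matched 69 members. Start-site measures were not analysed here for the other 20. Peak starts lie on a grid of 50 bp. With 1 list per mark and condition no test was possible. Shares of peaks carry exact Clopper-Pearson 95% intervals.

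Some members are counted but not reported here by name or drawn. The members and gene lists were chosen with earlier results of these data known. Named members are the 5 with the largest difference in each direction and mark, those without H3K27ac, the 3 with the longest untreated H3K27ac, Rps19, Rps14, Rpl5, Rpl11, the P stalk genes and the paralogs. Rpl9, Rpl10, Rpl12, Rpl23, Rpl36a and Rps2 were named after their values were seen. The free stretch around the start, the peak numbers over all genes and the comparison with genes of like length were also added after seeing the data. Computation used pandas 2.3.3, numpy 2.4.6 and scipy 1.17.1 under Python 3.11.15, with figures by matplotlib 3.10.9, and covered lengths were tested on simulated data.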

Additional observations from a re-analysis of the deposited data

How the results depend on the processing

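Of 184 values recomputed under other settings, 139 moved by less than 1.5 times or stayed in their interval, and 45 moved beyond that. A reversal could be recorded for median differences alone, and 0 were found. Counts and shares had no such label, so they could not count as reversed. No paired analysis was possible because each mark and condition has 1 list and no result comes from a test. The settings for the downstream edge other than merging and the size of step, and all settings for H3K4me1 at 1000 bp, were chosen after seeing the data. The cause of the differences below was not tested.

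H3K27ac stayed shorter at most members: 65 to 72 shorter and 10 to 17 longer under every other window, ranking, merging and scaling, while the members without a neighbour had 2 longer. At 500 bp the called members were 43 shorter and 1 longer, at 2000 bp 3 shorter, at a ratio of 1.5 they were 4 shorter. In windows of 20 kb they were 29 shorter and 3 longer, and 3 were longer in the better 50% of each list. The share of all genes called was not computed at these settings, so these counts have no background. The share of untreated H3K27ac peaks found in the treated list was 66.1% under reciprocal overlap of 50%, 93.0% in the better 50% and 87.1% within 1 kb of an end, and the treated share under reciprocal overlap was 80.0%.

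With scaled H3K4me1 lengths 33 members were shorter and the median was 221 bp, and 17 were longer and 2 shorter by 1000 bp. Windows of 2 kb gave 10 shorter, with 17 longer and 0 shorter by 1000 bp. Members without a neighbour gave 7 of 21 shorter, 14 longer (66.7%) and a median of 350 bp, near the 62.9% longer and 347 bp of all genes. At 500 bp 2 were shorter, at 2000 bp 8 longer and 0 shorter, at a ratio of 1.5 they were 3 longer and 0 shorter. Windows of 20 kb gave 10 shorter by 1000 bp and the better 50% gave 9. For H3K4me1 too, the share of all genes past each size was not computed at these settings. Shared H3K4me1 peaks were 89.3% untreated and 90.6% treated when 50% of the peak had to overlap, 71.1% and 79.1% under reciprocal overlap, and 98.8% and 99.4% within 1 kb of an end.

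Within 250 bp of the start, H3K4me1 was found at 20 members untreated and 30 treated. With peaks within 1 kb merged, it lay over the start base at 6 untreated and 13 treated. The share of all genes was not computed at these settings, so these counts have no background. Merging left the H3K27ac edge nearer at 50 of 59 members downstream and 37 upstream. Of 57 members, steps of at least 500 bp were found downstream at 21 nearer and 3 farther (36.8% and 5.26%). Upstream they were found at 3 nearer and 5 farther (5.26% and 8.77%). Among 6855 genes, 8.07% were nearer and 8.52% farther by that much downstream, and 358 were nearer and 648 farther upstream. At this size of step the members lay near all genes upstream. H3K4me1 covered 65.2% and 87.0% of members at 1500 bp and 5.80% and 7.25% at 500 bp. Among the 6855 genes it covered 85.9% and 90.2% at 1500 bp and 42.5% and 54.4% at 500 bp.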

Other observations

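Mitochondrial ribosomal protein genes had H3K27ac over the start base at 62 of 69 untreated and 68 treated, against 40.5% and 42.7% of all genes. At the cytosolic ribosomal protein genes the median width of an H3K4me1 peak was 1703 bp untreated and 2178 bp treated, and over the whole lists it was 903 and 1153 bp.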
